A study of Rattus norvegicus with 4 samples.

Results

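Pro-opiomelanocortin (Pomc) and 6 genes of prohormone processing (Pcsk1, Pcsk2, Cpe, Pam, Scg5 and Pcsk1n) were followed across the cells of the rat pituitary. The genes were chosen by symbol, and 6 of the 7 listed had a row among the 32883 genes measured. Pcsk1n had none and was not analysed here. The Ensembl identifiers given with the counts were ENSRNOG00000012686 for Pomc, ENSRNOG00000011107 for Pcsk1, ENSRNOG00000005438 for Pcsk2, ENSRNOG00000043387 for Cpe, ENSRNOG00000033280 for Pam and ENSRNOG00000007542 for Scg5.

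Pituitaries of female Sprague Dawley rats, 75 days old and taken at any stage of the estrous cycle, were dispersed with trypsin and EDTA and sequenced as single cells with a 10x Chromium 3′ kit, which counts unique molecular identifiers (UMIs), that is, single captured mRNA molecules. Of the pooled glands, 30 were first cut into posterior and anterior lobes, with 1 library each, and 30 were dispersed whole, with 2 lanes loaded from 1 suspension. No animal was treated, so the design compares cell groups and lobes within these 2 preparations. The lanes are technical repeats, and each preparation pools many rats. The p-values below rest on how far class differences vary between the 2 preparations, over all classes fitted, and not on the spread between rats.

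Pomc encodes a precursor protein that is cut into different hormones in different cells. In corticotrophs of the anterior lobe, the convertase Pcsk1 (PC1/3) releases mainly adrenocorticotropic hormone and β-lipotropin. In melanotrophs of the intermediate lobe, which in rodents comes away with the posterior lobe on dissection, the convertase Pcsk2 (PC2) cuts further, to α-melanocyte-stimulating hormone and β-endorphin. Carboxypeptidase E (Cpe) then trims the basic residues left at the cut, peptidylglycine α-amidating monooxygenase (Pam), a copper enzyme, amidates peptide ends, and Scg5 (7B2) is the chaperone and inhibitor of Pcsk2.

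The promoters of Pomc, whose level defined the cell groups, and of Pcsk2, the processing gene that differed most between them, are shown as the 250 bases before the annotated start. They are from RefSeq (rat build GRCr8), run 5′ to 3′ and lie on the plus strand, Pomc at chr6:32659103-32659352 and Pcsk2 at chr3:151333688-151333937. Capitals mark matches, on either strand, to 5 short motifs: TATAAA (the TATA box), CCAAT (the CAAT box), GGGCGG (the GC box), CANNTG (the E-box) and TGACG (the core of sites bound by CREB-type factors).
Pomc: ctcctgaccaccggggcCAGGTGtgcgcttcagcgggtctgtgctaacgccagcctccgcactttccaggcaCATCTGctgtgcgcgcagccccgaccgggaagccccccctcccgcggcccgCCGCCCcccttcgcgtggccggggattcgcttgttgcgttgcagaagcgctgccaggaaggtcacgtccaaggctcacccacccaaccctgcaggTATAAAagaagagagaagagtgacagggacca
Pcsk2: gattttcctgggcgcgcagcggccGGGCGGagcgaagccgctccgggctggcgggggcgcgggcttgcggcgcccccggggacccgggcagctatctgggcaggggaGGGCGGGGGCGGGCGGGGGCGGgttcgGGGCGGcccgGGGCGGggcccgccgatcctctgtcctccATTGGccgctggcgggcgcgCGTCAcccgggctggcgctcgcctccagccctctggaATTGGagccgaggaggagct

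The Pomc window held 1 TATAAA, starting 32 bases before the start site, 2 CANNTG and 1 GGGCGG. The Pcsk2 window held 7 GGGCGG, some of them overlapping, 2 CCAAT and 1 TGACG, and none of the letters TATAAA or CANNTG. Among 33469 promoter windows of this length, TATAAA was in 12.9%, CCAAT in 34.0%, GGGCGG in 30.5%, CANNTG in 65.5% and TGACG in 18.2%. G and C made up 79.6% of the Pcsk2 window and 66.4% of the Pomc window, against a median of 51.2% over all windows, and 1.24% of windows were at or above the share of Pcsk2. The windows of Cpe, Pam, Scg5 and Pcsk1n held 63.2, 55.2, 53.2 and 58.8% G and C, and Pcsk1 had no entry. A match describes the letters and is not evidence of binding.

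After filtering, 19777 cells were analysed, 3832 from the posterior lobe, 5503 from the anterior lobe and 5530 and 4912 from the whole-gland lanes, with a median of 9572.5 to 10604.5 UMIs per cell. Of the posterior barcodes, 45.4% had over 20% mitochondrial UMIs and were left out, against 27.2 to 27.9% in the other libraries. Pairs of libraries shared 3 to 10 barcodes among the cells analysed. Cells were taken in 2 ranges of Pomc, at least 30% of a cell's UMIs and 5 to 30%. The dissected preparation gave the upper range from the posterior library (425 cells) and the lower from the anterior library (241 cells), and the whole glands gave 157 and 551 cells. Since Pomc chose the cells and filled a large share of their UMIs, the other genes are given per 1000000 UMIs of all genes but 7 hormone genes (Pomc, Prl, Gh1, Lhb, Fshb, Tshb and Cga), written CPM below. Counts were made from the 3′ end of transcripts, so levels are compared between cells for 1 gene and not between genes. All intervals in brackets are 95% counting intervals, which cover counting error only.

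The Pomc ranges did not hold the same kinds of cells in every library. Clusters were built without the 7 listed genes, and 2 of the 25 held most of the Pomc-rich cells. The marker genes that name the clusters could enter the clustering, so they are not independent of it. The first, called melanotroph-like (642 cells), had Pax7, Oacyl, Esm1, Drd2 and Tbx19, and 527 of its cells were posterior, 0 anterior and 115 from whole glands. The second (1116 cells) had Tbx19 and Crhr1, the receptor of corticotropin-releasing hormone. Of the other corticotroph markers, Gpc5 had no row, Avpr1b had no UMI in either Pomc range, and Cyp11a1 had 0 to 4 UMIs per library. Fewer than 3 corticotroph markers were thus detected beyond a few UMIs, and this cluster is named here by its leading receptor as Crhr1-rich. Of the posterior cells with at least 30% Pomc, 404 of 425 were melanotroph-like, while all 35 such cells of the anterior lobe were Crhr1-rich. In whole glands the upper range was mixed, with 85 melanotroph-like and 70 Crhr1-rich cells of 157. The lower range was Crhr1-rich in 237 of 241 anterior and 509 of 551 whole-gland cells, and in the posterior library 115 of its 207 cells were melanotroph-like.

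**Figure D1:**
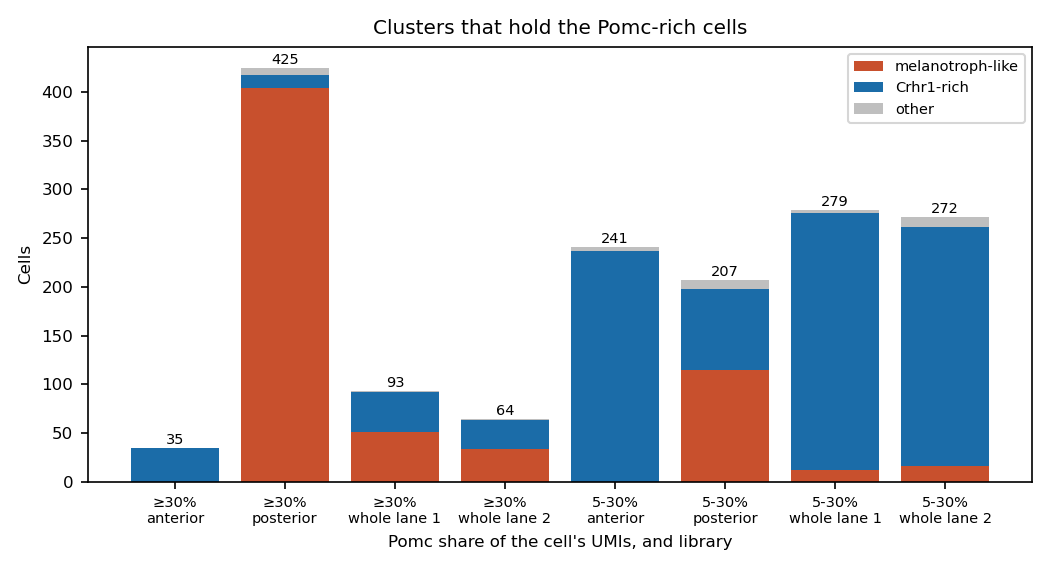
Number of cells (vertical axis) in each range of Pomc and library (horizontal axis), with bar segments for the cluster that held them and the total above each bar. The posterior cells with at least 30% Pomc were melanotroph-like in 404 of 425 cases, the 35 anterior cells of that range were all Crhr1-rich, and whole glands held both kinds.

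Pomc itself made up 47.1% of all UMIs in posterior cells of the upper range, 43.3 and 44.2% in those of the whole-gland lanes and 37.8% in the anterior ones. In the lower range it made up 17.5% in anterior cells, 18.6 and 18.2% in the lanes and 21.8% in posterior cells. These values follow from the way the cells were chosen. By cluster, Pomc took 44.3% of UMIs in posterior melanotroph-like cells and 44.0 and 41.9% in those of the lanes, against 19.1% in anterior, 21.3% in posterior and 19.6 and 17.9% in lane Crhr1-rich cells. Outside these groups Pomc was 0.0885 to 0.272% of UMIs in the classes of the posterior library, and 0.00785 to 0.0458% in those of the anterior library. A low share of Pomc was thus present in all cell classes, non-hormone cells included, and it was higher in the posterior library, where the Pomc-rich cells were more frequent.

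The fixed checks of cell identity set the ranges apart. Pax7, a transcription factor of melanotrophs, was at 150.2 and 76.2 CPM in cells of at least 30% Pomc (dissected and whole preparation), against 0 and 8.70 CPM in cells of 5 to 30%, and was called higher (edgeR quasi-likelihood test, Benjamini-Hochberg adjusted p = 3.21e-05). Drd2, the dopamine receptor through which melanotrophs are inhibited, was at 208.4 and 125.6 CPM against 3.43 and 13.05 CPM, a log2 fold change of 4.09 ± 0.29 (adjusted p = 1.14e-07, same edgeR test). Crhr1 was at 22.97 and 80.5 CPM in the upper range and 210.5 and 177.5 CPM in the lower, and Neurod1, a corticotroph factor in the mouse, at 15.2 and 47.6 CPM against 127.6 and 129.9 CPM. Both were lower, by log2 values of -2.18 ± 0.27 and -2.29 ± 0.28 (adjusted p = 2.18e-05 and 1.43e-05, same edgeR test). Tbx19, a factor needed for Pomc expression in both cell types, was not called (log2 fold change -0.20 ± 0.14, adjusted p = 0.372, edgeR), nor was Pitx1.

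Pcsk2 had by far the widest range of the processing genes among the Pomc-rich cells. It was at 775.8 CPM in posterior cells with at least 30% Pomc (3310 UMIs, interval 750 to 803) and at 440.6 and 418.8 CPM in the corresponding cells of the lanes, whereas the 35 anterior cells of that range had no UMI of it, which allows up to 14.8 CPM. In cells of 5 to 30% Pomc it was at 1.37 CPM in the anterior lobe (2 UMIs, interval 0.166 to 4.95), 40.1 and 31.5 CPM in the lanes and 325.9 CPM in the posterior lobe. The values compared, summed per library, were the posterior and whole-gland upper range against the anterior and whole-gland lower range. They did not overlap. Here and for the genes below, the share of all genes without such overlap was not counted. The counting ratio was 566 (interval 156 to 4672) in the dissected preparation, where it rests on 2 UMIs in the anterior cells, and 12.1 (9.89 to 14.8) in whole glands. Within the posterior library alone it was 2.38 (2.19 to 2.60).

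The size of the Pcsk2 difference went with the clusters that filled each range, and a smaller difference was seen inside the melanotroph-like cluster. There the ratio of upper to lower range was 1.33 (1.22 to 1.46) in the posterior library and 1.63 (1.32 to 2.02) in whole glands. In lane 1 alone it was 1.13 (0.849 to 1.51), an interval that includes 1. Among posterior Crhr1-rich cells it was 4.22 (1.30 to 13.3), from 7 and 8 UMIs. Posterior melanotroph-like cells had 768.5 CPM and those of the lanes 773.1 and 597.8 CPM, against 0.520 CPM in anterior, 14.4 CPM in posterior and 4.36 and 1.89 CPM in lane Crhr1-rich cells. The ratio of the clusters within whole glands was 219.5 (127 to 415), and within the posterior library, where both kinds of cell shared a suspension, 53.4 (33.3 to 91.7). Every melanotroph-like value lay above every Crhr1-rich value, and neither Pcsk2 nor any other processing gene had been used to form the clusters. In the edgeR quasi-likelihood test on UMIs summed per class and preparation, Pcsk2 was higher in cells of at least 30% than of 5 to 30% Pomc by a log2 fold change of 4.65 ± 0.35 (Benjamini-Hochberg adjusted p = 1.42e-07), and by 8.61 where each range was kept to its main cluster. The fitted value and the dissected counting ratio both rest on the 2 anterior UMIs, and the whole-gland and posterior ratios do not.

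At equal depth, with each cell thinned to 2000 non-hormone UMIs, 75.3% of posterior melanotroph-like cells had a Pcsk2 UMI (387 of 514, exact binomial interval 71.3 to 79.0%) and 71.1% of those of whole glands (81 of 114, 61.8 to 79.2%). Of Crhr1-rich cells, 0 of 315 anterior cells, 0.901% of posterior (1 of 111) and 0.616% of whole-gland cells (4 of 649) had one. Folliculostellate-like cells, a non-hormone type, had one in 0.123% of anterior, 0.697% of posterior and 0.256% of whole-gland cells. These shares rest on few cells. In level, Crhr1-rich cells had 14.4 CPM of Pcsk2 in the posterior library (17 UMIs) and 3.11 CPM in whole glands (13 UMIs), above the 1.54 and 0.896 CPM of folliculostellate-like cells there. In the anterior library, which had no melanotroph-like cell, this order was not seen. Crhr1-rich cells had 0.520 CPM (1 UMI) there and folliculostellate-like cells 0.871 CPM (7 UMIs), too few UMIs to give an order. Median non-hormone UMIs per cell before thinning were 9179 and 6441 in posterior and whole-gland melanotroph-like cells, 5779 and 6122 in anterior and whole-gland Crhr1-rich cells, and 5877 to 7826 in folliculostellate-like cells. Unthinned, the Pcsk2 share was 96.8 and 93.0% in posterior and whole-gland melanotroph-like cells, and 0.306 and 1.78% in anterior and whole-gland Crhr1-rich cells.

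Pcsk2 was also set against Pomc within each library. Posterior melanotroph-like cells had 0.964 Pcsk2 UMIs per 1000 Pomc UMIs (interval 0.934 to 0.995). In the same library the number was 1.12 (0.716 to 1.66) in pituicyte-like, 0.994 (0.323 to 2.32) in macrophage-like, 0.865 (0.317 to 1.88) in folliculostellate-like and 0.231 (0.00586 to 1.29) in endothelial-like cells, all with intervals that hold the melanotroph-like value. It was 9.06 (7.31 to 11.1) in lactotroph-like and 6.95 (5.36 to 8.86) in somatotroph-like cells, above it, and 0.0530 (0.0309 to 0.0848) in Crhr1-rich cells, below it. In the anterior library, which had no melanotroph-like cell, folliculostellate-like cells had 1.81 (0.729 to 3.74) and Crhr1-rich cells 0.00209 Pcsk2 UMIs per 1000 Pomc UMIs. The part of RNA from other cells in these counts was not tested.

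Pcsk1, a convertase known from both Pomc cell types, was also higher in the upper than in the lower range of Pomc. It was at 68.4 CPM in posterior cells of the upper range (292 UMIs) and 30.8 and 52.1 CPM in those of the lanes (19 and 28 UMIs), against 11.7 CPM in anterior cells of the lower range (17 UMIs) and 16.1 and 16.3 CPM in those of the lanes. These summed values did not overlap. The 35 anterior cells of the upper range had 20.03 CPM from 5 UMIs, and the posterior cells of the lower range 28.1 CPM from 55 UMIs. Pcsk1 was called higher, with a log2 fold change of 2.09 ± 0.26 (edgeR quasi-likelihood test, Benjamini-Hochberg adjusted p = 9.95e-06). Without the posterior library it was 1.38 (adjusted p = 0.00727, edgeR). The counting ratio was 5.87 (3.60 to 10.2) in the dissected preparation and 2.51 (1.66 to 3.76) in whole glands.

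By cluster, Pcsk1 was at 66.2 CPM in posterior melanotroph-like cells and 47.6 and 65.7 CPM in those of the lanes, against 12.5 CPM in anterior, 13.6 CPM in posterior and 15.02 and 14.2 CPM in lane Crhr1-rich cells. Within the posterior library the ratio of the clusters was 4.89 (2.96 to 8.65) and within whole glands 3.89 (2.62 to 5.76). Thinned to equal depth, 13.6% of posterior (70 of 514, interval 10.8 to 16.9%) and 7.02% of whole-gland melanotroph-like cells (8 of 114, 3.08 to 13.4%) had a Pcsk1 UMI, compared with 3.49% of anterior (11 of 315), 1.80% of posterior (2 of 111) and 2.47% of whole-gland Crhr1-rich cells (16 of 649). Unthinned, the shares were 40.4 and 31.3% of posterior and whole-gland melanotroph-like and 7.34 and 7.86% of anterior and whole-gland Crhr1-rich cells, and thinned folliculostellate-like cells had 0.0639 to 0.348%. The Crhr1-rich shares of Pcsk1 were above those of folliculostellate-like cells, while 1 of 54 posterior Schwann-like cells (1.85%) and 1 of 42 fibroblast-like cells of lane 2 (2.38%) had a UMI as well.

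Both convertases were found in the same cells. Of 514 thinned posterior melanotroph-like cells, 49 had UMIs of both (9.53%), 338 of Pcsk2 only (65.8%), 21 of Pcsk1 only (4.09%) and 106 of neither (20.6%). Of 114 from whole glands, 7 had both (6.14%), 74 Pcsk2 only (64.9%), 1 Pcsk1 only (0.877%) and 32 neither (28.1%). No Crhr1-rich cell of the anterior lobe or of whole glands had both, and Pcsk1 alone was found in 11 of 315 anterior and 16 of 649 whole-gland cells. At this depth a cell without a UMI is not a cell without the gene's RNA.

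**Figure D2:**
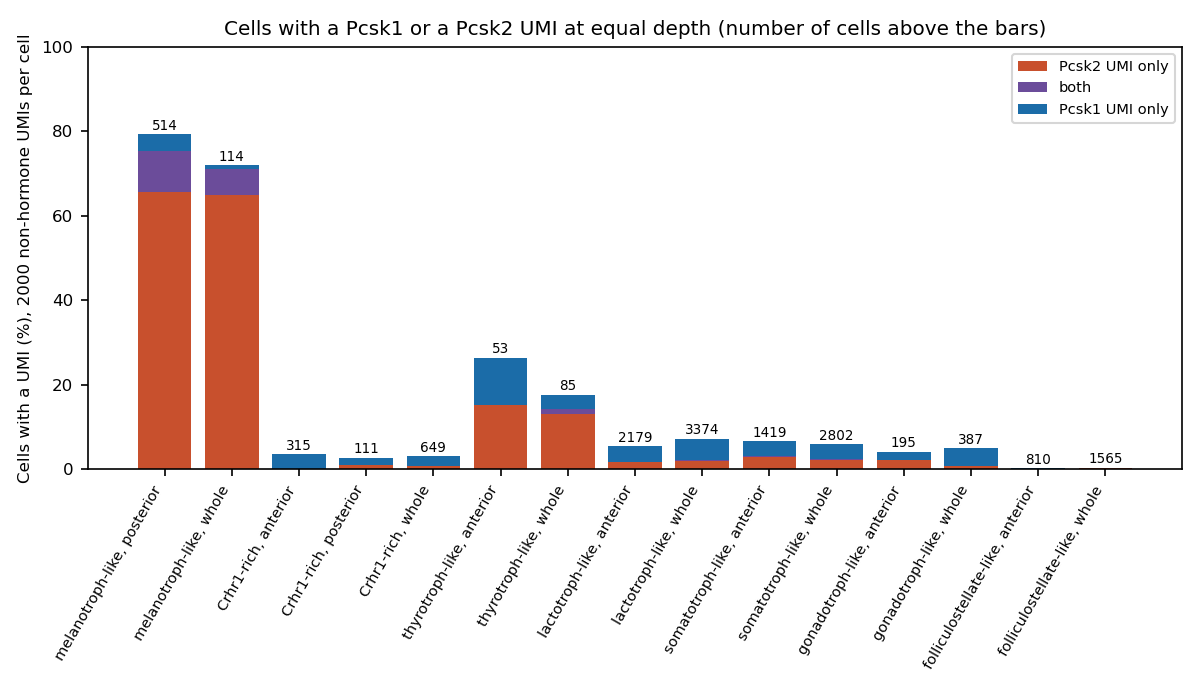
Share of cells (vertical axis, percent) with a UMI of Pcsk2 only, of both convertases or of Pcsk1 only after thinning to 2000 non-hormone UMIs, by cell class and library, with the number of cells above each bar. Melanotroph-like cells stand out by Pcsk2 (75.3 and 71.1% with a UMI), thyrotroph-like cells come next (15.1 and 14.1%), and Crhr1-rich cells have Pcsk1 in 3.49 and 2.47%.

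Cpe was at a higher level in the upper than in the lower range of Pomc in every library. Cells of the upper range had 2371 CPM in the posterior lobe, 2179 and 2306 CPM in the lanes and 2897 CPM in the anterior lobe, against 1542 CPM in anterior, 1431 and 1395 CPM in lane and 1509 CPM in posterior cells of the lower range. Summed per library, every upper-range value lay above every lower-range value. The spread over single cells is not given here. The counting ratio was 1.54 (1.47 to 1.61) in the dissected preparation, 1.58 (1.51 to 1.66) in whole glands and 1.88 (1.73 to 2.04) within the anterior lobe. The log2 fold change of 0.69 ± 0.19 passed the adjusted p (0.0158, edgeR quasi-likelihood test, Benjamini-Hochberg) but not the size of at least 1 that a call required.

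This held inside each cluster. Among Crhr1-rich cells Cpe was at 2897 CPM with at least 30% Pomc and 1570 CPM with 5 to 30% in the anterior lobe (ratio 1.85, 1.69 to 2.01, 35 and 237 cells), and at 2321 and 1430 CPM in whole glands (1.62, 1.52 to 1.73). Among melanotroph-like cells it was at 2388 and 1524 CPM in the posterior lobe (1.57, 1.48 to 1.66, 404 and 115 cells) and at 2195 and 1413 CPM in whole glands (1.55, 1.38 to 1.76, 85 and 28 cells). Along narrower bins of posterior melanotroph-like cells, Cpe went up from bin to bin, with 1200 CPM at 10 to 20% Pomc (25 cells), 1608 at 20 to 25%, 1647 at 25 to 30%, 1941 at 30 to 35%, 2032 at 35 to 40%, 2181 at 40 to 50% and 2957 CPM above 50% (125 cells). Depth rose with it, since the median cell had 9955 UMIs in the first of these bins and 23443 in the last. Upper-range cells were also deeper in each pair above, with a median of 17048 against 11301 UMIs in posterior melanotroph-like cells. The part of depth in this trend and in these pairs was not tested. In whole-gland Crhr1-rich cells Cpe was 1215 CPM at 2 to 5% Pomc (43 cells), 1289 at 5 to 10%, 1270 at 10 to 20%, 1557 at 20 to 25%, 1768 at 25 to 30%, 2225 at 30 to 35% (35 cells) and 2147 CPM at 35 to 40% (26 cells), with no steady rise over the first 3 bins and none at the last step.

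**Figure D3:**
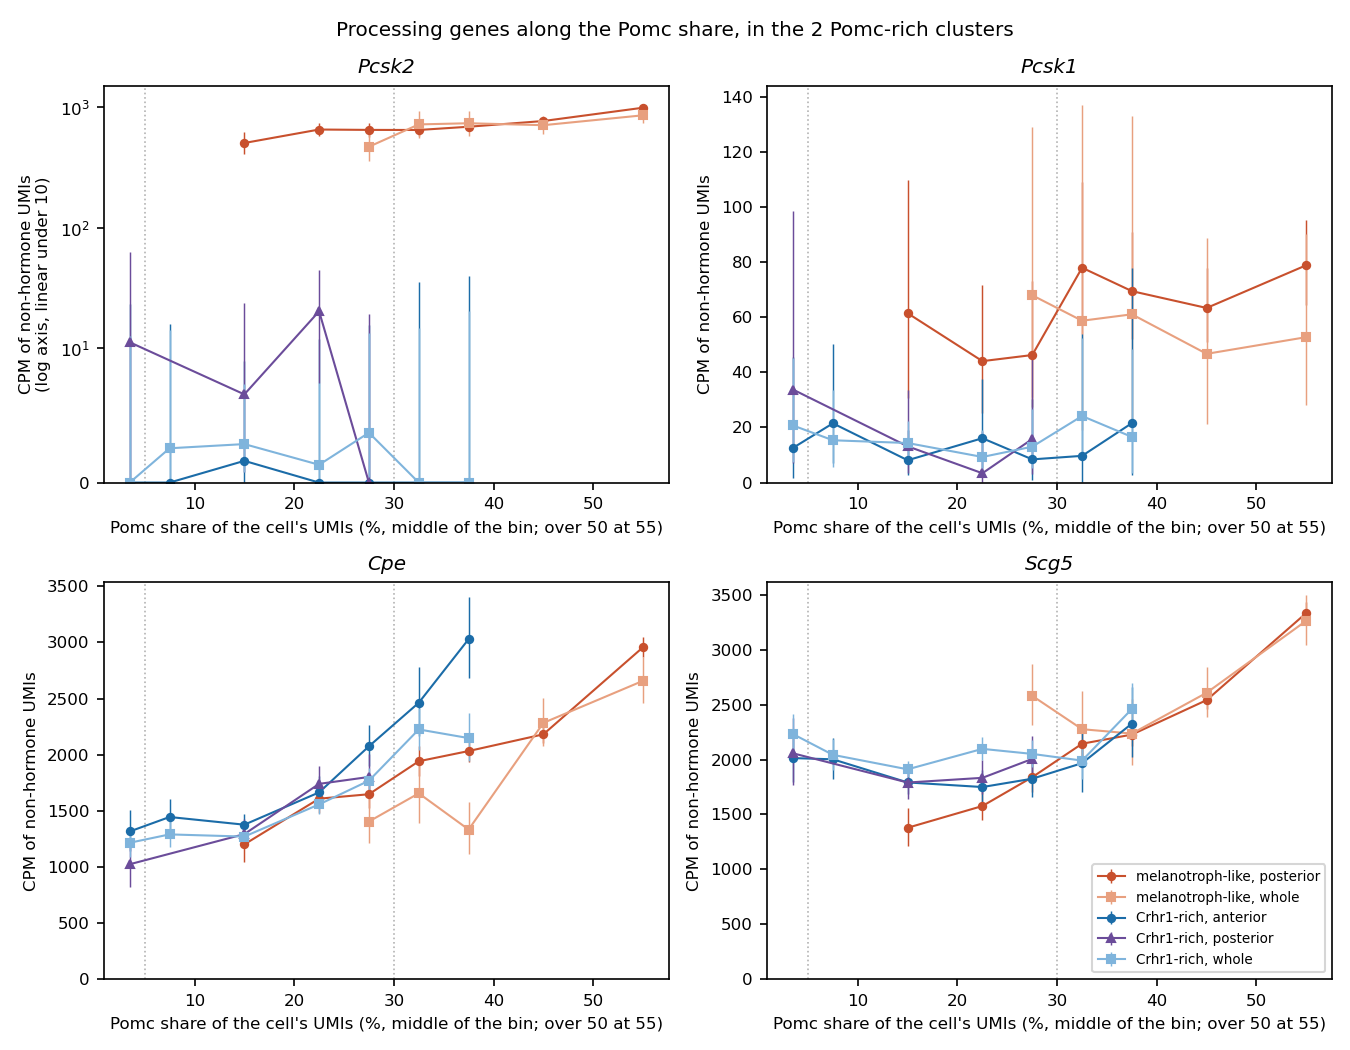
Level (CPM of non-hormone UMIs) of 4 processing genes against the Pomc share of the cell's UMIs (percent, middle of the bin), in the melanotroph-like and Crhr1-rich clusters, with counting intervals and dotted lines at 5 and 30%. Cpe is higher in the highest than in the lowest bin of each line, though not at every step, and Pcsk2 separates the clusters at any Pomc share plotted. The anterior Crhr1-rich bins above 30%, the whole-gland melanotroph-like bins below 40% and the first and last posterior Crhr1-rich bins hold under 20 cells each.

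Scg5 and Pam differed less between the ranges. Scg5 was at 2659 CPM in posterior and 2477 and 2587 CPM in lane cells of the upper range. In the lower range it was at 1797 CPM in anterior and 2039 and 2002 CPM in lane cells. These summed values did not overlap, but how many of all genes did the same was not counted. Its log2 fold change of 0.51 ± 0.20 did not pass (adjusted p = 0.0955, edgeR quasi-likelihood test, Benjamini-Hochberg). Among posterior melanotroph-like cells Scg5 was at 2707 CPM with at least 30% and 1633 CPM with 5 to 30% Pomc (ratio 1.66, 1.57 to 1.75). The ratio was 1.16 (1.05 to 1.27) in those of whole glands, and 1.20 (1.09 to 1.32) and 1.12 (1.05 to 1.20) among anterior and whole-gland Crhr1-rich cells.

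Pam was at 375.0 CPM in posterior and 280.2 and 295.9 CPM in lane cells of the upper range, against 241.4 CPM in anterior and 223.6 and 230.3 CPM in lane cells of the lower range. These values did not overlap, and the log2 fold change was 0.57 ± 0.18 (adjusted p = 0.0325, edgeR), under the size of a call. In Crhr1-rich cells Pam was 252.4 and 245.3 CPM (at least 30% and 5 to 30%) in the anterior lobe, a ratio of 1.03 (0.774 to 1.35). In posterior melanotroph-like cells it was 384.3 and 243.2 CPM, a ratio of 1.58 (1.38 to 1.82), and the whole-gland ratio was 1.08 (0.823 to 1.43). For Cpe, Pam and Scg5 the scale matters, because Pomc itself takes part of the UMIs. Scaled to all UMIs the mean log2 ratio of the ranges was 0.11 for Cpe, -0.04 for Pam and -0.09 for Scg5, against 0.64, 0.49 and 0.44 when scaled to non-hormone UMIs, so the direction of Pam and Scg5 turned round. The median log2 ratio of all genes was -0.67 and -0.48 on the scale of all UMIs (dissected and whole) and -0.09 and -0.01 on that of non-hormone UMIs.

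Of the 5 processing genes tested, 2 were called higher in cells of at least 30% than of 5 to 30% Pomc (Pcsk1 and Pcsk2), where 5.99% of the 15030 genes tested were called higher, and 0 were called lower, where 4.17% were. A gene was called where its adjusted p was under 0.05 and its log2 fold change was 1 or more in size. The median log2 fold change over all genes was 0.01. In all 1527 genes were called, and 483 without the anterior and 537 without the posterior library. Posterior cells of the upper range had summed pituicyte markers of 161.7 CPM, all 7 detected, against 6.17 CPM and 5 of 7 at 0 in anterior cells of the lower range, and summed macrophage markers (8 genes) of 78.3 against 4.11 CPM. In whole glands these sums were 53.5 and 52.1 CPM for pituicyte markers and 11.3 and 11.2 CPM for macrophage markers in the lanes' upper range, against 13.2 and 17.5 CPM and 5.98 and 9.01 CPM in their lower range. Their part in the results was not tested. Folliculostellate-like, pituicyte-like and macrophage-like cells had 0 to 2.84 CPM of Pcsk2.

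At the limits of the ranges the nearest bins compared as follows. Posterior cells of 30 to 35% Pomc (60 cells) had 517.1 CPM of Pcsk2 and 2031 CPM of Cpe, and those of 25 to 30% (62 cells) 436.4 and 1669 CPM. Anterior cells of 30 to 35% (16 cells) had 0 CPM of Pcsk2 and 2462 CPM of Cpe, and those of 25 to 30% (36 cells) 0 and 2074 CPM. Whole-gland cells of 30 to 35% (50 cells) had 199.1 CPM of Pcsk2 (interval 155.5 to 251.2) and those of 25 to 30% (104 cells) 94.5 CPM (72.8 to 120.7). Posterior Pcsk1 was at 63.4 CPM at 30 to 35% and 34.3 CPM at 25 to 30%. Around the lower limit, anterior cells of 5 to 10% (46 cells) had 3.54 CPM of Pcsk2 and 1367 CPM of Cpe, and those of 2 to 5% (31 cells) 0 and 1154 CPM.

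The Pomc-rich ranges were next set against the 4 other hormone classes (lactotroph-, somatotroph-, gonadotroph- and thyrotroph-like cells). Pcsk2 was in these classes at 6.84 to 113.0 CPM over 16 class and library values, with a median of 13.6 CPM. Thyrotroph-like cells had 113.0 CPM in the anterior lobe, 48.2 in the posterior and 74.7 and 94.0 CPM in the lanes, and all values of the other 3 classes lay between 6.84 and 15.7 CPM. Cells of at least 30% Pomc were above all of these in the posterior and whole-gland libraries, with a log2 fold change of 4.97 ± 0.21 (adjusted p = 2.99e-13, edgeR quasi-likelihood test, Benjamini-Hochberg), and Pcsk2 was the 1 processing gene of 5 called higher, where 9.83% of all genes tested were. None of the 5 was lower, where 5.5% of genes were.

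Pcsk1 in the upper range (68.4, 30.8 and 52.1 CPM) overlapped the other hormone classes, which had 16.1 to 60.7 CPM and a median of 25.02 CPM. Its log2 fold change of 0.96 ± 0.16 passed the adjusted p (1.07e-04, edgeR) and was just under the size of a call. It was above that size under several other settings, and 0.25 without the posterior library (adjusted p = 0.648, edgeR). Cpe was at 875.5 to 1679 CPM in the other hormone classes, all below the upper range, and its log2 fold change was 0.73 ± 0.14 (adjusted p = 5.56e-04, edgeR). Pam was at 314.7 to 943.4 CPM in those classes, highest in thyrotroph-like cells (943.4 anterior, 602.4 posterior, 887.0 and 780.3 CPM in the lanes) and next in gonadotroph-like cells (529.4, 573.1, 594.7 and 554.4 CPM). Its log2 fold change in the upper range was -0.73 ± 0.14 (adjusted p = 5.46e-04, edgeR), again under the size of a call.

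Per non-hormone UMIs, cells of 5 to 30% Pomc had less Pcsk1 and Pam than the other hormone classes. On that scale their Pam and Scg5 values were also the lowest of all hormone groups. Hormone RNA takes a different share of the UMIs in each class, and these levels are not given here per all UMIs, where the order may differ. Pcsk1 at 11.7 (anterior), 16.1 and 16.3 CPM (lanes) was lower, with a log2 fold change of -1.13 ± 0.23 (adjusted p = 8.53e-04, edgeR quasi-likelihood test, Benjamini-Hochberg). These values overlapped the other hormone classes at 1 value, 16.1 CPM from 4 UMIs in posterior thyrotroph-like cells. Pam at 241.4, 223.6 and 230.3 CPM lay below all 16 values of the other hormone classes and was lower by -1.30 ± 0.15 on the log2 scale (adjusted p = 1.12e-06, edgeR). These 2 of the 5 processing genes were called lower, where 6.26% of all genes were, and 0 were called higher, where 8.2% were. Scg5 at 1797, 2039 and 2002 CPM lay below all other hormone values (2442 to 5024 CPM), with a log2 fold change of -0.93 ± 0.17 (adjusted p = 2.96e-04, edgeR), just short of the size of a call. Cpe did not pass (0.03 ± 0.15, adjusted p = 0.934, edgeR). Pcsk2 did not pass either (0.32 ± 0.40, adjusted p = 0.607, edgeR), and its preparations went opposite ways: the difference of mean log2(CPM + 1) was -3.04 in the dissected and 0.99 in the whole preparation. With the Crhr1-rich cluster in place of the range, Pcsk2 was lower than in other hormone classes, by -3.08 on the log2 scale (adjusted p = 2.11e-08, edgeR).

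**Figure D4:**
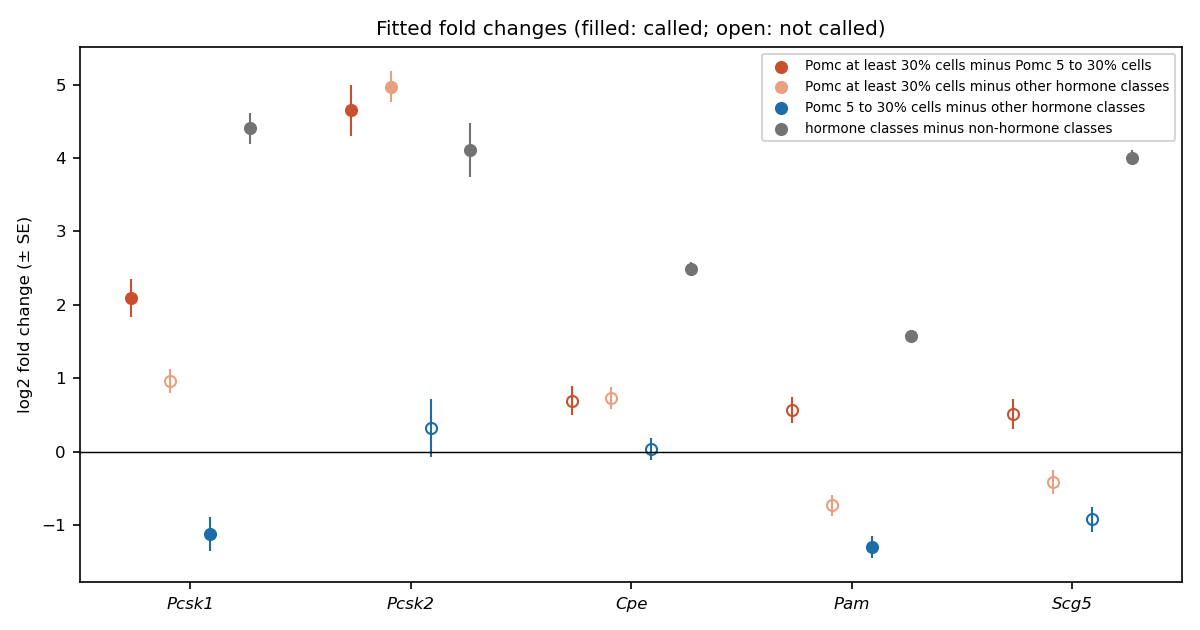
Log2 fold change with its SE (vertical axis) of the 5 processing genes in 4 comparisons, filled where the gene was called and open where not. Pcsk2 is at 4.65 and 4.97 in the comparisons of cells with at least 30% Pomc, Pam is at -1.30 in cells of 5 to 30%, and all 5 genes are called higher in hormone than in non-hormone classes.

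Scg5 was highest in gonadotroph-like cells, with 4721 CPM in the anterior lobe, 3608 in the posterior and 5024 and 4756 CPM in the lanes. Thyrotroph-like cells had 3143, 2442, 3382 and 3116 CPM, next in the anterior lobe and the lanes but below the upper Pomc range and the other hormone classes in the posterior library. Lactotroph-like (2467 to 2893 CPM) and somatotroph-like cells (2457 to 2769 CPM) overlapped each other and the Pomc-rich cells of the upper range. The chaperone of Pcsk2 was thus most abundant in gonadotroph-like cells, in which Pcsk2 itself was at 7.88 to 13.4 CPM.

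All 5 processing genes were higher in the hormone classes, the Pomc ranges included, than in 5 non-hormone classes (folliculostellate-, pituicyte-, endothelial-, fibroblast- and macrophage-like cells), where 14.6% of all genes tested were higher, and 19.8% were lower. Pcsk1 was at 0 to 6.98 CPM in non-hormone classes with a median of 0.946 CPM, and its log2 fold change was 4.41 ± 0.21 (adjusted p = 1.48e-13, edgeR quasi-likelihood test, Benjamini-Hochberg). Pcsk2 was at 0 to 8.42 CPM with a median of 1.22 CPM (4.11 ± 0.36, adjusted p = 2.18e-09, edgeR). Scg5 was at 27.1 to 420.9 CPM with a median of 159.2 CPM (4.005 ± 0.10, adjusted p = 7.25e-18, edgeR), below every hormone group.

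The enzymes that act after the cut were not confined to hormone cells. Cpe was at 23.2 to 739.5 CPM in non-hormone classes, highest in folliculostellate-like cells (739.5 anterior, 656.7 posterior, 614.9 and 625.5 CPM in the lanes), and its log2 fold change was 2.49 ± 0.09 (adjusted p = 1.47e-15, edgeR). Pam was at 10.4 to 349.3 CPM with a median of 183.7 CPM, a log2 fold change of 1.58 ± 0.08 (adjusted p = 3.95e-13, edgeR). Its highest non-hormone values overlapped those of the Pomc-rich ranges. Non-hormone classes also held Pomc, at up to 0.272% of UMIs in the posterior library, and the part of such RNA in the Cpe and Pam values was not tested.

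**Figure D5:**
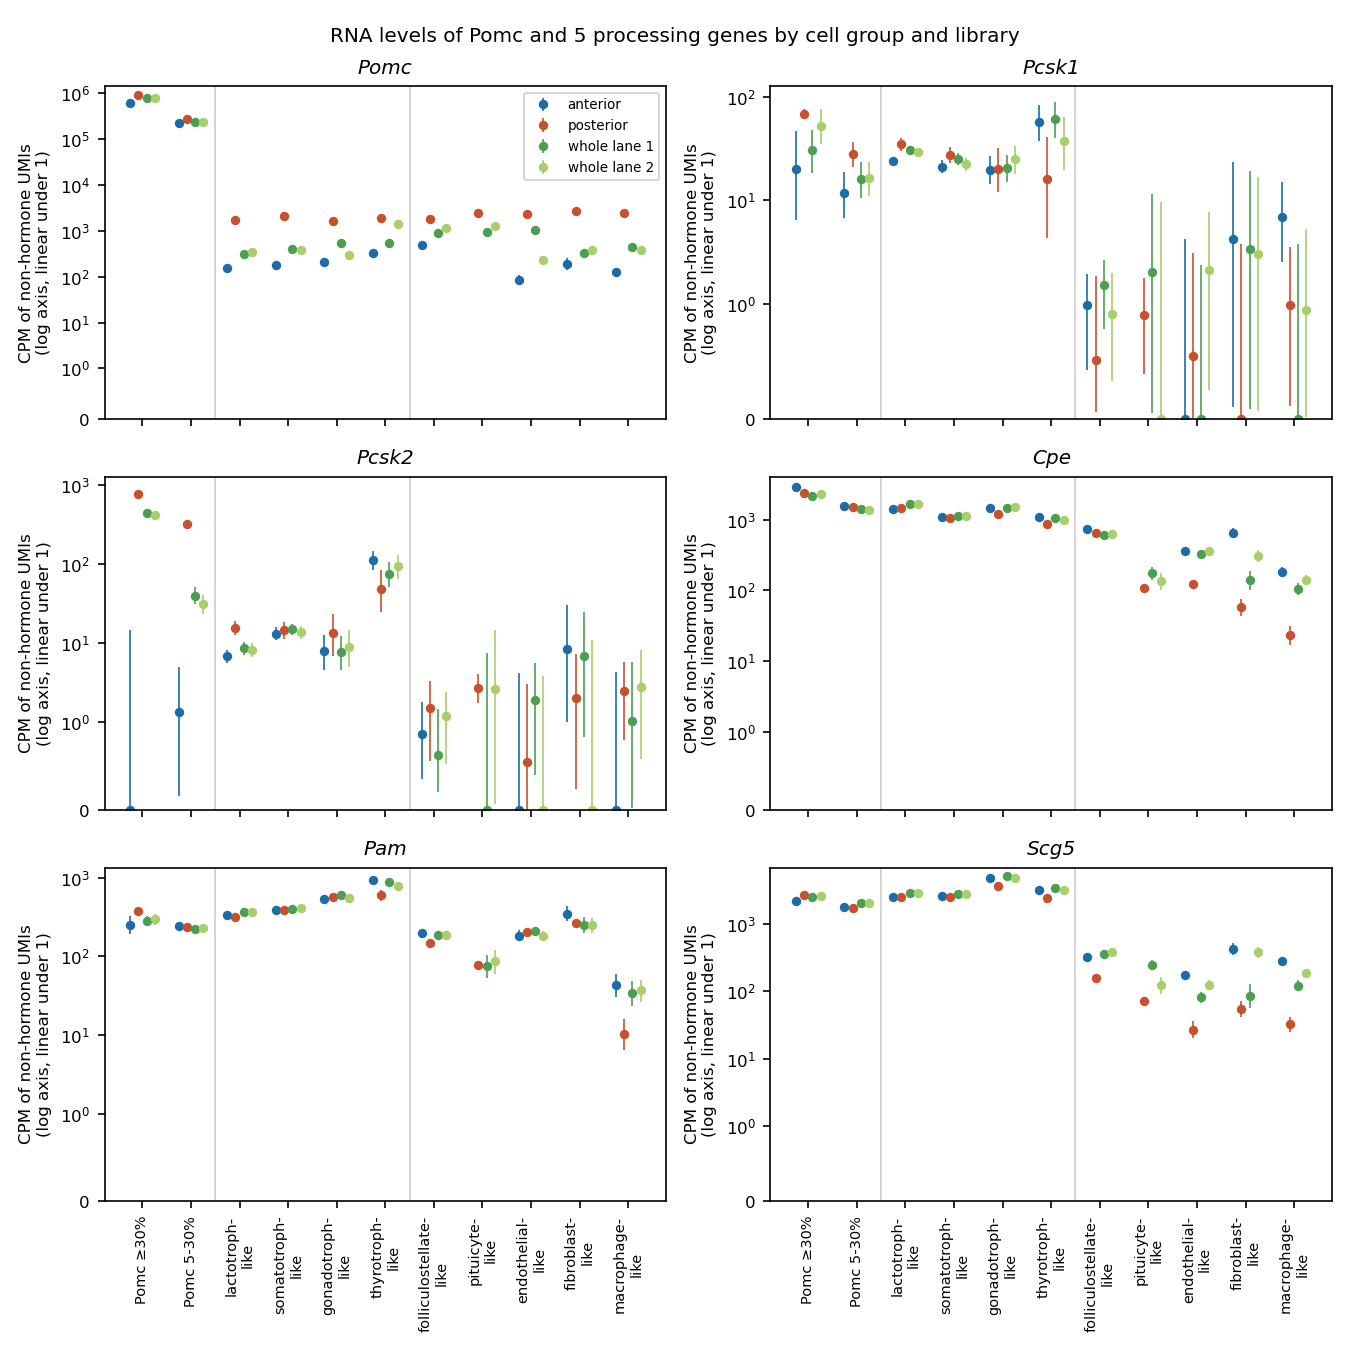
Level of Pomc and the 5 processing genes (vertical axis, CPM of non-hormone UMIs, logarithmic above 1 and linear below) in 11 cell groups, 1 point per library with its 95% counting interval. Pcsk2 reaches 775.8 CPM in posterior cells with at least 30% Pomc and 1.37 CPM in anterior cells with 5 to 30%, thyrotroph-like cells are highest in Pam, and Scg5 is highest in gonadotroph-like cells.

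Other genes of the pathway came from lists of enzymes, copper transporters and receptors. Of 7 other proprotein convertases 6 were tested, and 1 was higher and 1 lower in cells of at least 30% than of 5 to 30% Pomc, with a median log2 fold change of 0.01, as over all genes. Pcsk4, known for its role in germ cells, was at 7.4999 and 5.20 CPM (dissected and whole, 32 and 6 UMIs) against 0 and 0.580 CPM (0 and 2 UMIs), which is at least 3.65-fold higher in the dissected preparation for a floor of 3 counts over the group and 8.96-fold (1.60 to 90.8) in whole glands (adjusted p = 5.67e-04, edgeR quasi-likelihood test, Benjamini-Hochberg). Pcsk6 (PACE4) was at 1.64 and 8.66 CPM against 19.2 and 17.7 CPM, a log2 fold change of -2.46 ± 0.42 (adjusted p = 3.01e-04, edgeR). Furin, the convertase of most cells, was not called (37.0 and 26.8 CPM against 22.6 and 28.4 CPM; 0.43 ± 0.21, adjusted p = 0.185, edgeR).

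Of 7 other carboxypeptidases 5 were tested, with 1 higher, 0 lower and a median of 0.67. Cpm, a membrane-bound carboxypeptidase, was at 20.4 and 5.20 CPM against 1.37 and 1.16 CPM, ratios of 14.9 (3.99 to 125) and 4.48 (1.06 to 21.6) (adjusted p = 1.42e-04, edgeR). Of 15 genes of peptide end modification and breakdown, all tested, 2 were higher and 0 lower, with a median of 0.27. Mme (neprilysin), a peptidase of the cell surface, was at 16.9 and 10.4 CPM against 0.686 and 0.580 CPM, ratios of 24.6 (4.28 to 985) and 17.9 (3.99 to 165) (adjusted p = 2.78e-04, edgeR). Prcp, which cuts α-melanocyte-stimulating hormone in the mouse hypothalamus, was at 12.4 and 4.33 CPM against 4.80 and 3.19 CPM, a log2 fold change of 1.43 ± 0.41 (adjusted p = 0.0190, edgeR). Its counting ratio was 2.59 (1.17 to 6.75) in the dissected preparation. In whole glands it was 1.36 (0.370 to 4.24, from 5 and 11 UMIs), an interval that includes 1.

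None of 6 copper genes was called (median 0.51). The copper importer Slc31a1 had 0.88 ± 0.28 (adjusted p = 0.0375, edgeR), under the size of a call. Of 9 receptors of Pomc peptides and their accessory proteins, 8 had a row and 1 had enough UMIs to be tested. This was Mrap2, an accessory protein of melanocortin receptors, at 15.7 and 86.6 CPM in the upper range and 175.6 and 157.2 CPM in the lower (log2 fold change -2.10 ± 0.32, adjusted p = 9.73e-05, edgeR). It was higher in both ranges than in other hormone classes (2.15 and 4.25 on the log2 scale). Of 10 listed regulators 8 were tested, 3 higher (Pax7, Drd2 and Nr4a1), 2 lower (Crhr1 and Neurod1), with a median of -0.21. Nr4a1, an orphan nuclear receptor that acts on the Pomc promoter, was at 550.5 and 383.7 CPM against 169.4 and 222.7 CPM (1.19 ± 0.33, adjusted p = 0.0154, edgeR). Posterior cells of the lower range had 549.6 CPM of Nr4a1, as much as those of the upper range, and anterior cells of the upper range had 208.3 CPM. The part of library and cluster in this call was not tested. The low-level genes above rest on few UMIs, and in these sums fewer cells and less RNA per cell cannot be told apart.

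Across the 22 sums of class and preparation, the genes with the pattern most like each member were found among 2964 genes with a mean of at least 50 CPM, by Pearson's r of log2(CPM + 1). They were Doc2g (0.92), Fam89a (0.87) and Stard3nl (0.82) for Pomc, Nap1l5 (0.96), Clstn3 (0.96) and Camk2b (0.95) for Pcsk1, and Rit2 (0.82), Prkacb (0.82) and Fdps (0.82) for Pcsk2. For Cpe they were Nabp2 (0.96), Gnas (0.95) and Fndc3a (0.94), for Pam Faap20 (0.89), Arl2bp (0.89) and Copa (0.88), and for Scg5 Resp18 (0.98), Nap1l5 (0.98) and Syp (0.98). Among the members themselves r was 0.94 for Pcsk1 and Scg5, 0.91 for Cpe and Scg5, 0.84 for Pcsk1 and Cpe and 0.82 for Pcsk1 and Pcsk2. Pomc was most like Pcsk2 (0.55) and least like Pam (0.03). Since Pomc defined 2 of the 11 groups and limited the others, its own values of r follow in part from that choice. The 22 sums are 11 groups seen in 2 preparations, share libraries and depth, and are not independent.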

How the data were processed

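The authors deposited 1 matrix of counts (UMIs of each gene in each barcode, 4 libraries), made with Cell Ranger 3.1 per the submitters' processing notes; the deposited barcode list carries a library suffix, matched per the labels. Genome build and annotation are not given in the sources used here. Barcodes under 1000 UMIs, under 500 genes or over 20% mitochondrial UMIs were dropped, leaving 20381 of 32455, and 604 with a Scrublet score above 0.25 (expected rate 0.06) were removed. Clustering (scanpy 1.11.5, 2000 variable genes, 30 components, 15 neighbors, Leiden 1.0) left out the members and those listed genes that were not cell type markers. Clusters were named from fixed markers, which could themselves enter the clustering. UMIs were summed per class and preparation (at least 50 cells; 22 sums, 11 classes) and fitted with edgeR 4.0.16 (TMM, filterByExpr, quasi-likelihood, terms for class and preparation, 10 residual degrees of freedom, 15030 genes), tested on simulated data. SEs are the log2 fold change divided by the square root of F. Dissected sums of the Pomc ranges took upper-range cells from the posterior and lower-range cells from the anterior library. The genes named were the members, those called in lists of related genes, and the 3 most alike. Members and lists were chosen with earlier results of these data known. Alternatives included DESeq2 1.42.0, other filters, cell ranges and leaving out each library.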

Additional observations from a re-analysis of the deposited data

Results flagged for a closer look

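Pcsk2 in cells of 5 to 30% Pomc, set against the other hormone classes, went opposite ways in the 2 preparations. The difference of mean log2(CPM + 1) was -3.04 in the dissected preparation and 0.99 in whole glands, and this difference between preparations was not tested. The anterior cells of that range had 1.37 CPM of Pcsk2, and 237 of 241 were Crhr1-rich. The whole-gland cells had 35.7 CPM, and 28 of 551 were melanotroph-like. Crhr1-rich cells of whole glands alone had 3.11 CPM, and melanotroph-like cells of whole glands 683.3 CPM.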

How the results depend on the processing

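The comparison of the Pomc ranges called 1527 genes, and 483 to 1584 with 1 library left out, with 483 without the anterior and 537 without the posterior library. Against other hormone classes the counts were 2304 genes (1510 to 2248) for cells of at least 30% Pomc, with 1510 without the posterior library, and 2174 (1353 to 2387) for cells of 5 to 30%, with 1353 without the anterior library. Without either library 1 Pomc range has a single sum, which is then assumed to vary like the others. Processing genes called in cells of at least 30% Pomc against other hormone classes were 1, and 2 with doublets kept, with ranges and sums from separate parts of the UMIs, with clusters in place of ranges and with ranges within 1 cluster each (1 to 2 with 1 library left out). Pcsk1 in cells of 5 to 30% was just within the threshold without the anterior library (-1.01, adjusted p = 0.0495, edgeR).

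Directions turned round for Pcsk2 in cells of 5 to 30% Pomc against other hormone classes, at -0.12 with DESeq2, -3.08 with clusters, -3.29 with ranges within 1 cluster each and -0.12 without whole-gland lane 1 (-0.12 to 0.93 with 1 library left out). The same held for Cpe there without the anterior library (-0.23 to 0.043 with 1 library left out), and, scaled to all UMIs, for Pam (-0.042) and Scg5 (-0.086) between the ranges. The causes were not tested. Pcsk1 and Pcsk2 were called higher between the ranges in every alternative run (log2 1.38 to 2.50 and 3.74 to 8.61). In all, 293 of the processing genes' log2 fold changes under alternatives had the direction and side of the threshold reported, 7 newly passed and 5 turned round. Of the shares of cells, 16 moved beyond their interval without thinning and 4 did not. The stricter cell filter gave only the comparison of the ranges, since a class then had under 50 cells. Ranges within 1 cluster each, and leaving out a shallow pituicyte-like cluster, were chosen after seeing the data. Every fit compares classes within preparations, through its term for preparation. In the dissected preparation the Pomc ranges came from different libraries and lobes, and range and library cannot be told apart there. No paired analysis was possible by replicate number, because only the 2 whole-gland lanes, repeats of 1 suspension, carry such numbers. The number of UMIs limits Pcsk1 and the low-level listed genes most.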
